A study of Homo sapiens with 8 samples.

Results

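This report describes the messenger RNAs of RNA polymerase I (Pol I), its initiation factors and the nucleolar proteins that assemble ribosomes, in 293T cells given EerI, CBU-028 or 5-NA. The group was a list of 38 genes, and its members were found by their gene symbols in the annotation of the array. A probe set that names a single gene measured 34 of the 38, out of 19775 genes measured in that way. NOP56, DKC1 and BOP1 occurred only in probe sets that list a microRNA gene or small nucleolar RNA genes beside them, and these were kept apart. No probe set was matched to GNL3, which was not analysed here. The signals of 6 control probe sets of the same arrays for the 18S and 28S ribosomal RNA (rRNA) were set beside those of the genes. They read the rRNA that was labelled, which need not follow its level in the cells or the rate of its synthesis.

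293T is a cell line from human embryonic kidney with the large T antigen of SV40. The cells were exposed for 10 h to 10 µM EerI (Eeyarestatin I), 10 µM CBU-028 or 10 µM 5-NA (5-nitrofuryl-acrolein), or were left as control cells, and each of the 4 groups had 2 arrays, 8 in all. 5-NA corresponds to the nitrofuran-containing part of EerI and lacks its aromatic part, and the structure of CBU-028 is not described here. A single dose and a single time were used, so the compounds were compared at matched dose and time. Whether control cells received solvent is not stated for the arrays, and the titles of the 5-NA samples bear the experiment number of a different compound in the study's compound list, so each 5-NA value depends on the remaining labels of those samples, which all name 5-NA. The kidney line was checked against marker genes on all 8 arrays, on the log2 signal scale. NEFL, a neurofilament gene that this line is known to express, lay between 13.13 and 13.63. VIM lay between 13.66 and 13.77 and KRT18 between 12.22 and 12.34. PTPRC of blood cells lay between 4.40 and 4.86 and ALB of liver between 4.75 and 5.27. The other markers read were less extreme. Of all genes, 23.1% were brighter than NEFM, 30.7% than KRT8 and 37.6% than INA. For COL1A2 the share was 74.1% and for PECAM1 56.6%, against 91.8% for PTPRC and 87.9% for ALB.

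Pol I transcribes a single kind of gene, the repeated rRNA genes, and the precursor it makes is cut into 18S, 5.8S and 28S rRNA. Transcription starts when RRN3 brings Pol I to the upstream binding factor UBTF and to the selectivity factor SL1, which holds TAF1A, TAF1B, TAF1C and TAF1D. In the nucleolus, small nucleolar ribonucleoproteins (snoRNPs) of the box C/D and box H/ACA kinds modify the precursor, a small subunit processome cuts out the 18S part, and other factors build the 60S subunit. Ribosome production takes a large part of the effort of a dividing cell, and cells turn it down under many kinds of stress.

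Promoters of the members were read from RefSeq (build GRCh38.p14, 250 bases before to 50 after each start), where 32 of the 38 genes had at least 1 entry. POLR1E, NOP58, NOLC1, RRP12, RRS1 and BOP1 had none. The E-box CACGTG, the letters bound by MYC with MAX, was in a promoter of 14 of the 32 genes (43.8%), against 8.77% of all 27305 genes with an entry. The ETS-type letters CCGGAAGT were in 9 of the 32 (28.1%) against 4.95%, and the GC box GGGCGG in 22 (68.8%) against 48.3%. Both strands were searched and a gene counted once. The cAMP response letters TGACGTCA and the CEBP-ATF letters TGATGCAA were in a promoter of 0 of the 32 genes, against 2.25% and 1.08% of all genes. These are matches of letters in a window of 300 bases, not sites shown to be bound. The promoters below are those of 5 members that changed: TAF1A and RRN3, which hold CCGGAAGT and rose with CBU-028, and BYSL, NOP10 and NOP14, which hold CACGTG and of which the first rose and the other two fell with 5-NA. Capitals mark CCGGAAGT, here on the opposite strand, in the first pair and CACGTG in the rest. They lie at chr1:222589884-222590183, minus strand for TAF1A, chr16:15094286-15094585, minus strand for RRN3, chr6:41921249-41921548, plus strand for BYSL, chr15:34343087-34343386, minus strand for NOP10 and chr4:2963357-2963656, minus strand for NOP14, each with the 5′ end of the gene's own strand first.
TAF1A: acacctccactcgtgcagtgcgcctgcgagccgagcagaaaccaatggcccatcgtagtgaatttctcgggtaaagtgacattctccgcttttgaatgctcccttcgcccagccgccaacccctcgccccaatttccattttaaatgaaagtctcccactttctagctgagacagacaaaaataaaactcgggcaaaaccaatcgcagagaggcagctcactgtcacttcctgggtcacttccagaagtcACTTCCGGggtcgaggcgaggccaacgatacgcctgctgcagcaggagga
RRN3: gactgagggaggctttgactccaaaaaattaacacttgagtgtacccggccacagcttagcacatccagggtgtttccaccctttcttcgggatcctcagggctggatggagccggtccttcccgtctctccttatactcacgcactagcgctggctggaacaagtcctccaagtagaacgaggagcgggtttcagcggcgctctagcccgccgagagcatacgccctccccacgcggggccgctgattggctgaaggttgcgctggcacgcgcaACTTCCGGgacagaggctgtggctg
BYSL: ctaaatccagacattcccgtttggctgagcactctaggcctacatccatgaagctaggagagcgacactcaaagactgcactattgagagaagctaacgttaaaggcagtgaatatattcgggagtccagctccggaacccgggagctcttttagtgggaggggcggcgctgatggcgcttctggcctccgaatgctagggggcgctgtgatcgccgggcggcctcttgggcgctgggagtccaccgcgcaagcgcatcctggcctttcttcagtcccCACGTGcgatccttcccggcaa
NOP10: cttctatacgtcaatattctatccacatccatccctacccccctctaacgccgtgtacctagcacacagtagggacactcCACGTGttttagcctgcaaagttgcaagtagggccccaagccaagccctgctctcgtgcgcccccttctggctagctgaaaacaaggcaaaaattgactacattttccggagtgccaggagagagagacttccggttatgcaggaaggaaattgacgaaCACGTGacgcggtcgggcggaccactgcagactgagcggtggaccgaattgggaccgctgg
NOP14: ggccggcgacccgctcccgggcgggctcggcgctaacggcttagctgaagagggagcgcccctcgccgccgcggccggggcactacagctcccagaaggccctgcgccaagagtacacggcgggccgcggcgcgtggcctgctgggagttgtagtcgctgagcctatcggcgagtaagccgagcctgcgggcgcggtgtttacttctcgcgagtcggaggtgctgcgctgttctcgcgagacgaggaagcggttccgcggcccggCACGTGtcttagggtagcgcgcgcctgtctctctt
The E-box thus occurred both in a member that rose and in members that fell with the same compound. It was also in FBL, GAR1, PES1, RRP9, NOP2, UTP4, UTP18, WDR43, DDX21 and LYAR, whose brightest probe sets were not called against control. GNL3, which held it as well, was not analysed. CCGGAAGT was also in NOP10, which fell with 5-NA and where it is left in lower case above, and in POLR1B, POLR1C, TAF1C, GAR1, UTP4 and DDX21, whose brightest probe sets were not called against control.

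The values were log2 signals that the authors made with RMA, an algorithm that brings all arrays to a common distribution, so a value is relative to the other transcripts of its array. In such bulk RNA, less transcript in each cell and fewer cells that carry it cannot be told apart. Duplicates of the array table as a whole differed by a median of 0.0738 (control) to 0.138 (CBU-028), and none was a copy of another. Over the 34 members the median gap between duplicates lay between 0.0331 and 0.0654, and the largest was 0.479, for POLR1C in 5-NA cells. The median standard error (SE) of a member's difference was 0.0819 on the log2 scale. The 9 spiked hybridization control probe sets averaged 12.07 and 12.08 on the control arrays, 11.88 and 12.17 on those of EerI, 12.16 and 12.36 on those of CBU-028, and 12.20 and 12.50 on those of 5-NA. The 3′ minus 5′ difference of ACTB, a gauge of RNA integrity, was 0.36 on 5-NA replicate 2 and between 0.07 and 0.20 on the other 7 arrays. Differences below are log2 differences of group means with their SE, adjusted p is that of limma over all probe sets, and a gene was called higher or lower at an adjusted p under 0.05.

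Of the 6 rRNA probe sets, 2 of 28S and 2 of 18S gave a higher signal with 5-NA, and 1 of 28S and 2 of 18S with CBU-028. The 28S 5′ probe set was at 12.66 and 12.62 in control cells, 12.95 and 12.93 with EerI, 12.89 and 13.11 with CBU-028, and 14.02 and 14.04 with 5-NA. The 5-NA arrays stood above all others, and those of EerI and CBU-028 overlapped each other just above the control arrays. The difference from control was 1.39 (SE 0.09, adjusted p = 8.86e-05), or 2.62-fold, with 5-NA. It was 0.36 (adjusted p = 0.038) with CBU-028 and 0.30 (adjusted p = 0.28) with EerI. The 28S middle probe set was at 11.33 and 11.33, 11.47 and 11.57, 11.57 and 11.81, and 12.42 and 12.67 in the same order of groups. It too was highest on both 5-NA arrays, by 1.22 (SE 0.11, adjusted p = 0.000354) over control. The 28S 3′ probe set was dim, at 7.16 to 7.56 on all arrays (7.33 and 7.34 in control, 7.16 and 7.26 with EerI, 7.23 and 7.22 with CBU-028, 7.41 and 7.56 with 5-NA), and its 5-NA difference of 0.15 was not called (adjusted p = 0.30).

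For 18S, CBU-028 and 5-NA stood together. The 18S 3′ probe set was at 11.68 and 11.68 in control cells, 11.92 and 12.07 with EerI, 12.86 and 12.45 with CBU-028, and 12.63 and 12.83 with 5-NA. Both compounds lay above every control and EerI array, by 0.98 (SE 0.13, adjusted p = 0.00277) and 1.05 (SE 0.13, adjusted p = 0.0014) over control, close to 2-fold. The 18S middle probe set was at 10.72 and 10.72, 10.59 and 10.79, 11.45 and 11.31, and 11.19 and 11.64 in the same order, and was higher by 0.66 (adjusted p = 0.021) with CBU-028 and 0.69 (adjusted p = 0.012) with 5-NA. The 18S 5′ probe set was at 12.09 and 12.10, 11.95 and 12.12, 12.85 and 12.52, and 12.35 and 12.88, with differences of 0.59 (adjusted p = 0.060) and 0.52 (adjusted p = 0.069) that were not called. Of the 6 rRNA probe sets, limma called 0 with EerI (2 higher at an unadjusted p under 0.05, and 0 called by the unmoderated linear model), 3 with CBU-028 and 4 with 5-NA, all of them higher.

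**Figure D1:**
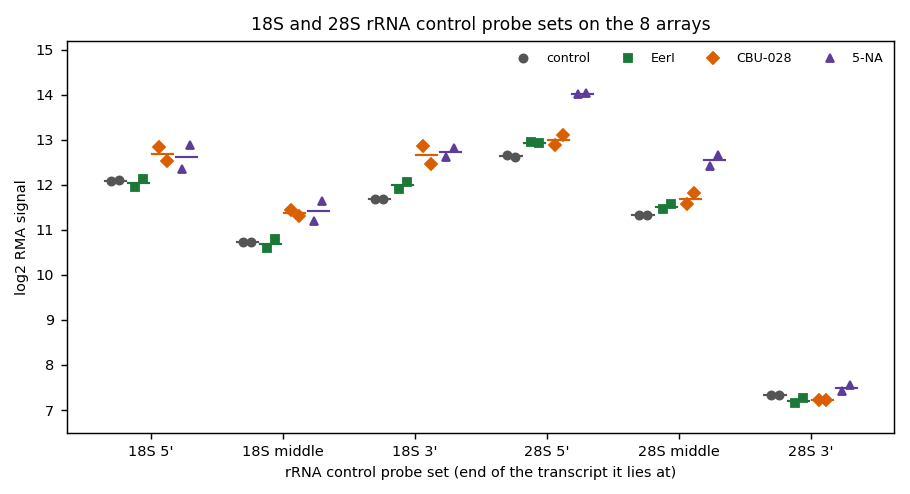
Log2 RMA signal (vertical axis) of the 6 rRNA control probe sets (horizontal axis) on each of the 8 arrays, with 1 symbol per array, colours for the 4 groups and a short line at each group mean. Both 5-NA arrays stand above all others for the 28S 5′ and middle probe sets, while for the 18S probe sets the CBU-028 and 5-NA arrays lie in the same range above control and EerI.

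5-NA differed from CBU-028 in the 28S 5′ and middle signals and not detectably in the 18S signals. The 28S 5′ signal was higher with 5-NA than with CBU-028 by 1.03 (95% interval 0.82 to 1.23, adjusted p = 0.000753), and higher than with EerI by 1.09 (95% interval 0.89 to 1.30). The 18S 3′ signal differed between 5-NA and CBU-028 by 0.07 (95% interval -0.23 to 0.37, adjusted p = 0.82). The spike averages given above were highest on 5-NA replicate 2, CBU-028 replicate 2 and 5-NA replicate 1, in that order. The means of the 12 poly-A spike probe sets had another order, with 7.31 and 6.97 on the control arrays, 6.64 and 7.11 on those of EerI, 7.18 and 7.55 on those of CBU-028 and 6.93 and 7.10 on those of 5-NA. The part of either in the rRNA values was not tested. What share of the cells' rRNA reached the arrays was not measured either. With 1 array left out at a time, the 28S 5′ and middle calls with 5-NA and the 18S 3′ calls with both compounds held in all 8 fits. The 28S 5′ call with CBU-028 was lost in 7 of 8 (all but that without CBU-028 replicate 1, adjusted p up to 0.20). The 18S middle calls were lost without either control array, and also without CBU-028 replicate 1 (adjusted p up to 0.12) or 5-NA replicate 2 (adjusted p up to 0.073), each for its own compound.

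None of the 34 genes of the Pol I and assembly machinery reached 2-fold in any comparison, and the widest difference from control was 0.66 on the log2 scale. With EerI, limma called 0 of the 34 higher and 0 lower, where 0.506% of all 19775 genes were called higher and 0.263% lower. Without adjustment, p was under 0.05 for 1 higher and 6 lower members, against 1014 higher and 1327 lower of all 19775 genes. The unmoderated linear model called 0 members in either direction. The count of lower members became 1 without either CBU-028 array and 3 with a trend in the prior variance. The median difference was -0.10 (all genes, -0.0016), and 28 of the 34 lay below 0 (82.4%, against 50.6% of all genes). The values ran from -0.44 for RRS1 to 0.37 for POLR1E.

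With CBU-028, 3 of the 34 were higher (POLR1E, TAF1A and RRN3, 1 subunit and 2 initiation factors of Pol I), against 5.49% of all genes, and 1 was lower (RRS1), against 7.1%. The median was 0.0148 (all genes, -0.0099), and 16 of the 34 lay below 0 (47.1%, against 52.3% of all genes). With 5-NA, 2 were higher (RRN3 and BYSL), against 7.87% of all genes, and 5 were lower (RRS1, TAF1B, NOP10, UBTF and NOP14), against 10.9%. The median was -0.0208 (all genes, -0.0268), and 17 of the 34 lay below 0 (50%, against 55.9% of all genes). Read against these shares, counts of 1 to 5 among 34 do not set the members apart from genes in general. The 3 comparisons share the 2 control arrays.

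**Figure D2:**
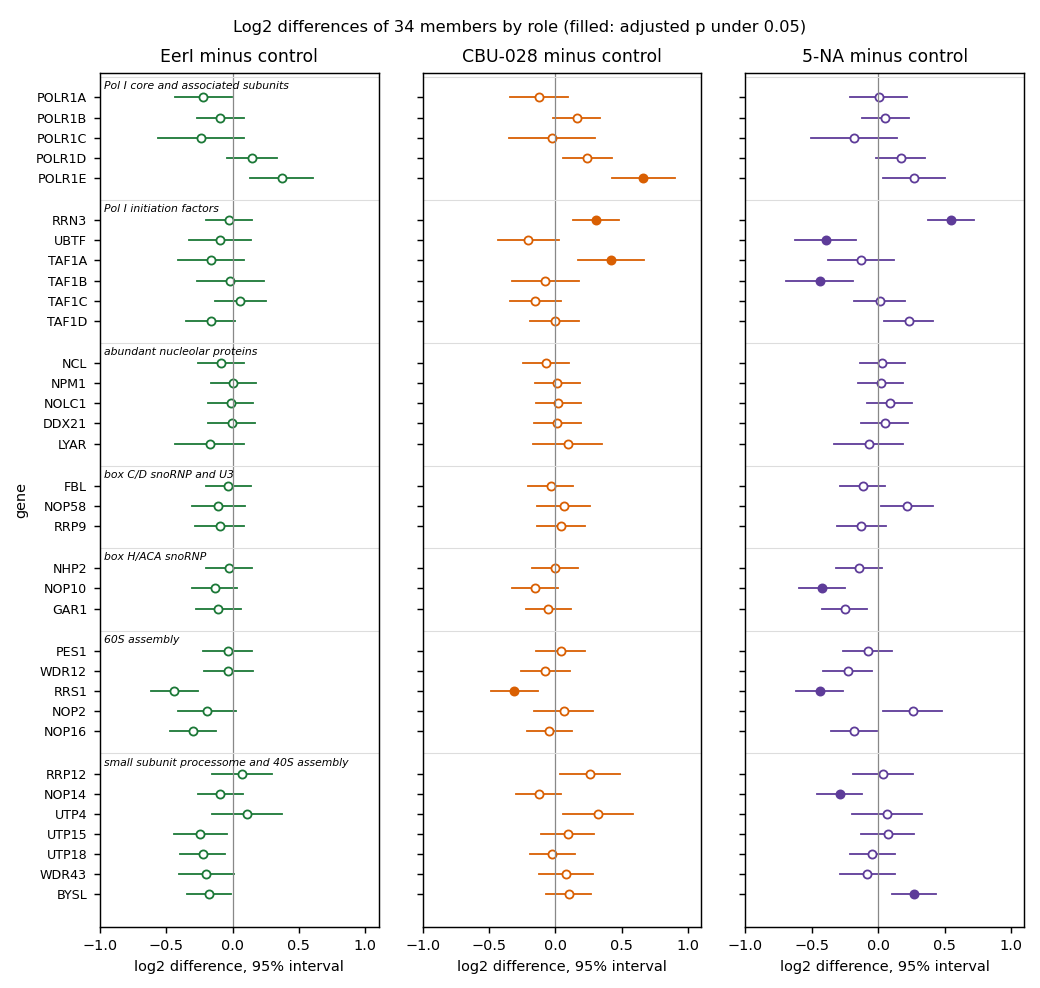
Log2 difference from control (horizontal axis) of the 34 genes (vertical axis, grouped by role) for EerI, CBU-028 and 5-NA, with 95% intervals and filled symbols at an adjusted p under 0.05. No symbol is filled for EerI, 4 are filled for CBU-028 and 7 for 5-NA, and the differences run from -0.44 to 0.66.

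Of the 5 subunits of Pol I, only POLR1E was called by its brightest probe set, with CBU-028. POLR1E encodes PAF53, which with its partner subunit POLR1G docks on the polymerase and helps it to start and elongate. Its signal was 10.03 and 9.95 in control cells, 10.34 and 10.39 with EerI, 10.69 and 10.61 with CBU-028, and 10.41 and 10.12 with 5-NA. All 6 treated arrays were above both control arrays, and the CBU-028 arrays were above the rest. The difference was 0.66 (SE 0.10, adjusted p = 0.0053), or 1.58-fold, with CBU-028, the largest of any member against control. It was 0.37 with EerI (adjusted p = 0.23) and 0.27 with 5-NA (adjusted p = 0.13). Of the 8 fits that left out an array, the CBU-028 call was lost in the 1 without control replicate 2 (adjusted p = 0.056), and it was also lost with the unmoderated linear model after adjustment. Both other probe sets of POLR1E, which are dimmer, had differences of 0.24 and 0.26 with CBU-028 that were not called (adjusted p = 0.12 and 0.082).

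The catalytic subunits POLR1A and POLR1B and the subunits POLR1C and POLR1D, which Pol III also contains, were not called with any compound by their brightest probe sets. With 5-NA, dimmer probe sets of 3 of them were called: 1 of POLR1A was lower (-0.32, adjusted p = 0.038), 1 of POLR1B was lower (-0.35, adjusted p = 0.031) and 1 of POLR1D was higher (0.39, adjusted p = 0.034). The values that follow are those of the brightest probe sets. POLR1A was at -0.22 with EerI (adjusted p = 0.50), -0.12 with CBU-028 and 0.00 with 5-NA. POLR1B was at -0.09, 0.16 and 0.05. POLR1C lay between -0.24 and -0.03, and POLR1D between 0.15 and 0.24. The 2 arrays of 5-NA read 11.31 and 10.83 for POLR1C, so its 5-NA value of -0.18 rests on duplicates that disagreed by more than the difference.

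Among the 6 initiation factors, RRN3, the factor that makes Pol I able to start and a target of growth signalling through mTOR, rose with CBU-028 and 5-NA. Its signal was 8.76 and 8.80 in control cells, 8.74 and 8.76 with EerI, 9.12 and 9.05 with CBU-028, and 9.34 and 9.32 with 5-NA. The EerI arrays lay at or just below the control arrays, the CBU-028 arrays above them and the 5-NA arrays above those. The difference was 0.55 (SE 0.08, adjusted p = 0.0021), or 1.46-fold, with 5-NA and 0.31 (SE 0.08, adjusted p = 0.038) with CBU-028, and -0.03 (adjusted p = 0.97) with EerI. The 5-NA call held with each of the 8 arrays left out (adjusted p between 0.0014 and 0.029). The CBU-028 call was lost in 7 of the 8 (all but that without CBU-028 replicate 2, adjusted p up to 0.24). The human genome holds near-identical RRN3 pseudogenes, and whether they add to this probe set was not tested.

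The subunits of SL1, the complex that recognises the rRNA gene promoter, went separate ways. TAF1A was at 8.74 and 8.66 in control cells, 8.44 and 8.63 with EerI, 9.22 and 9.02 with CBU-028, and 8.67 and 8.47 with 5-NA. Only the CBU-028 arrays lay above the control arrays, by 0.42 (SE 0.11, adjusted p = 0.046). TAF1B, the subunit that resembles the Pol II factor TFIIB, was at 9.51 and 9.48, 9.46 and 9.49, 9.59 and 9.24, and 9.09 and 9.02 in the same order. Both 5-NA arrays lay below control, by -0.44 (SE 0.11, adjusted p = 0.029), and the CBU-028 duplicates lay on either side of control. TAF1C was not called with any compound (-0.15 to 0.06), nor was TAF1D (0.23 with 5-NA, adjusted p = 0.096). The TAF1A call was lost in 7 of the 8 fits that left out an array (all but that without CBU-028 replicate 2, adjusted p up to 0.24). The TAF1B call was lost in the 6 that left out a control, EerI or 5-NA array (adjusted p up to 0.15).

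UBTF, the factor that holds rRNA gene chromatin open, fell with 5-NA. Its signal was 9.64 and 9.70 in control cells, 9.61 and 9.53 with EerI, 9.58 and 9.35 with CBU-028, and 9.36 and 9.19 with 5-NA. The difference was -0.40 (SE 0.10, adjusted p = 0.031), or 0.76-fold, with 5-NA, and -0.20 and -0.10 with CBU-028 and EerI, neither called. Of its 4 other probe sets, 2 were called lower with 5-NA (-0.38, adjusted p = 0.021, and -0.47, adjusted p = 0.025) and 2 were not (-0.05 and 0.18). The call of the main probe set was lost in the 6 fits that left out a control, EerI or 5-NA array (adjusted p up to 0.18). With 5-NA, 1 of the 6 initiation factors was thus called higher and 2 lower, where 7.87% of all genes were called higher and 10.9% lower.

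**Figure D3:**
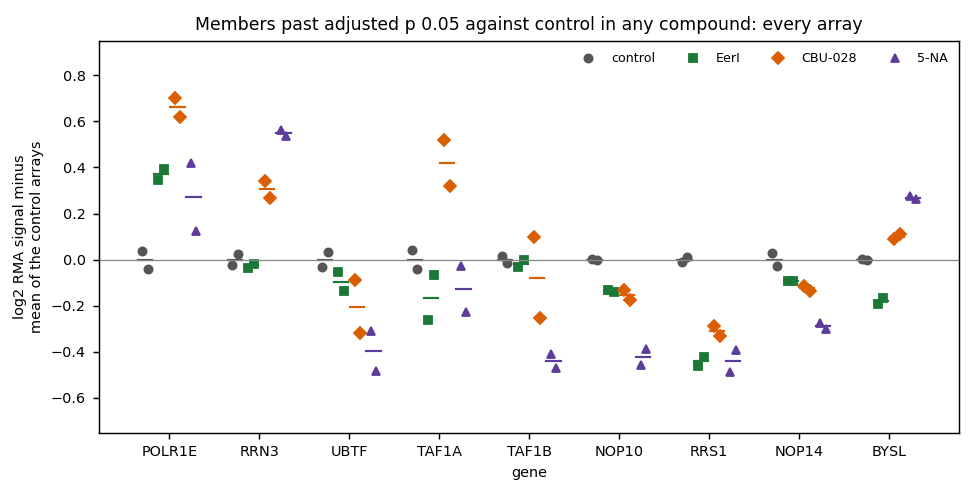
Log2 signal minus the mean of the control arrays (vertical axis) for the 9 members called against control with any compound (horizontal axis), with 1 symbol per array and a short line at each group mean. POLR1E is highest on the CBU-028 arrays, RRN3 on the 5-NA arrays, TAF1A lies above control on both CBU-028 arrays, and RRS1 lies below control on all 6 treated arrays.

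The transcripts of 5 further nucleolar proteins, NCL, NPM1, NOLC1, DDX21 and LYAR, were not called by their brightest probe sets against control. NCL (nucleolin) and NPM1 (nucleophosmin), abundant RNA-binding proteins that help to organise the nucleolus, were at 0.03 and 0.02 with 5-NA and -0.07 and 0.01 with CBU-028. NOLC1, DDX21, an RNA helicase, and LYAR were at 0.09, 0.05 and -0.07 with 5-NA and 0.02, 0.01 and 0.09 with CBU-028. The CBU-028 duplicates of LYAR lay apart, at 12.53 and 12.16. Over the 5, differences ran from -0.17 to 0.09 in the comparisons with control, and 0 of 5 passed an adjusted or an unadjusted p under 0.05 in limma with any compound. The 95% interval of NPM1 with 5-NA was -0.15 to 0.19.

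In the box H/ACA snoRNP, which turns uridines of rRNA into pseudouridines, NOP10 fell with 5-NA. NOP10, the small protein that supports the pseudouridine synthase, read 13.73 and 13.73 in control cells, 13.60 and 13.59 with EerI, 13.60 and 13.56 with CBU-028, and 13.28 and 13.35 with 5-NA. All 6 treated arrays lay below control, and the 5-NA arrays lay lowest. The difference was -0.42 (SE 0.08, adjusted p = 0.0063), or 0.75-fold, with 5-NA, against -0.14 (adjusted p = 0.65) with EerI and -0.15 (adjusted p = 0.27) with CBU-028. The call was lost without either control array (adjusted p up to 0.059). The partner proteins GAR1 (-0.25, adjusted p = 0.055) and NHP2 (-0.15) were not called with 5-NA. In the box C/D snoRNP, which methylates rRNA, the methyltransferase FBL was at -0.12, NOP58 at 0.22 (adjusted p = 0.14) and RRP9, a protein of the U3 snoRNP, at -0.13 with 5-NA, and none of the 3 was called with any compound against control.

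Among the 5 factors of the 60S subunit, RRS1 was low with all compounds. RRS1, which takes part in bringing the 5S RNA and its proteins into the growing subunit, read 12.54 and 12.56 in control cells, 12.09 and 12.13 with EerI, 12.26 and 12.22 with CBU-028, and 12.06 and 12.16 with 5-NA. No treated array reached the control arrays. The difference was -0.44 (SE 0.08) with EerI and -0.44 (SE 0.08) with 5-NA. With EerI it missed the threshold (adjusted p = 0.056) and with 5-NA it passed (adjusted p = 0.0060), and the values of both compounds differed by 0.00 (95% interval -0.18 to 0.18). With CBU-028 it was -0.31 (SE 0.08, adjusted p = 0.039). The 5-NA call was lost without either control array (adjusted p up to 0.060), and the CBU-028 call in the 6 fits that left out a control, EerI or CBU-028 array (adjusted p up to 0.21). PES1 and WDR12, partners of BOP1 in a complex that 60S assembly requires, were at -0.08 and -0.23 with 5-NA, not called, while a dimmer probe set of WDR12 was called lower (-0.35, adjusted p = 0.027). NOP16 was at -0.30 with EerI (adjusted p = 0.18), and the rRNA methyltransferase NOP2 at 0.26 with 5-NA (adjusted p = 0.12).

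Of the 7 factors of the small subunit processome and 40S assembly, BYSL rose and NOP14 fell with 5-NA. BYSL (bystin) acts late in making the 40S subunit and read 11.56 and 11.56 in control cells, 11.37 and 11.40 with EerI, 11.65 and 11.67 with CBU-028, and 11.84 and 11.83 with 5-NA. The EerI arrays lay below control and the others above, in 4 groups that did not overlap. The 5-NA difference was 0.27 (SE 0.07, adjusted p = 0.039), or 1.21-fold, and the EerI difference was -0.18 (adjusted p = 0.47). NOP14, which binds the U3 snoRNP, read 11.76 and 11.71 in control cells, 11.64 and 11.64 with EerI, 11.62 and 11.60 with CBU-028, and 11.46 and 11.44 with 5-NA. It was below control on all treated arrays and was called only with 5-NA (-0.29, SE 0.07, adjusted p = 0.032). Both calls were lost in the 6 fits that left out a control, EerI or 5-NA array (adjusted p up to 0.19 for BYSL and 0.21 for NOP14). UTP4, UTP15, UTP18, WDR43 and RRP12 were not called against control, with the widest values at 0.32 for UTP4 with CBU-028 (adjusted p = 0.13) and -0.24 for UTP15 with EerI (adjusted p = 0.39).

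Of the 7 probe sets that list a member beside small RNA genes, 1 was called against control. It was lower with 5-NA, where 10.9% of all genes were called lower. The brighter one of BOP1, listed with a microRNA gene, read 11.59 and 11.56 in control cells, 11.60 and 11.51 with EerI, 11.46 and 11.39 with CBU-028, and 11.27 and 11.27 with 5-NA. It was lower with 5-NA by -0.30 (SE 0.08, adjusted p = 0.032), and the dimmer one by -0.21 (adjusted p = 0.14). The 2 that list NOP56 and the 3 that list DKC1, the pseudouridine synthase, lay between -0.15 and 0.19 in the 3 comparisons with control and none was called. Which of the listed genes such a probe set reads was not settled. For 20 of the 34 genes the array held 36 more probe sets, all dimmer than those used above. Of these, 0 were called with EerI, 1 higher with CBU-028 (UTP4, 0.32, adjusted p = 0.048), and 1 higher and 6 lower with 5-NA. Among all genes, each read by its brightest probe set, 7.87% were higher and 10.9% lower with 5-NA. The 1 higher was that of POLR1D, and the 6 lower were 2 of UBTF and 1 each of POLR1A, POLR1B, WDR12 and UTP15. For 5 of these 6 genes, all but UBTF, the brightest probe set was not called with 5-NA. The UTP15 pair differed in sign: its dimmer probe set was at -0.46 (adjusted p = 0.0086) with 5-NA, while the one used above was at 0.07. The sign matched that of the gene's main probe set in 19, 20 and 22 of the 36 with EerI, CBU-028 and 5-NA.

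The 3 pairs of compounds were compared directly, each with p-values adjusted over all probe sets. 5-NA, the nitrofuran-containing part alone, differed from the whole molecule EerI in 8 of the 34 members. It was higher in 6, against 7.93% of all genes, namely RRN3 (0.58, SE 0.08, adjusted p = 0.0019), BYSL (0.45, SE 0.07, adjusted p = 0.0047), NOP2 (0.45, SE 0.10, adjusted p = 0.016), TAF1D (0.40, SE 0.08, adjusted p = 0.013), NOP58 and UTP15 (both 0.32). It was lower in 2, against 9.66%, namely TAF1B (-0.42, SE 0.11, adjusted p = 0.036) and NOP10 (-0.29, SE 0.08, adjusted p = 0.035). In all 8 the arrays of the compounds did not overlap. That adds no support, since the 8 were picked by their p-values and uncalled members such as NCL, FBL and GAR1 did not overlap either. For RRN3 and TAF1B the EerI arrays were within or beside the control range, while for BYSL, NOP2 and TAF1D EerI lay below control and 5-NA above it. The median over the 34 was 0.0302 (all genes, -0.0278).

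The RRN3 difference held with every array left out. Among these fits, that of BYSL was lost in the 1 without EerI replicate 1 (adjusted p = 0.052), that of NOP2 without either EerI array or 5-NA replicate 1 (adjusted p up to 0.11) and that of TAF1D without any of the 4 arrays compared (adjusted p up to 0.12). Those of TAF1B, NOP10 and UTP15 were lost in 6 of the 8 fits, all that left out a control, EerI or 5-NA array (adjusted p up to 0.17, 0.18 and 0.24). That of NOP58 was lost in 5, all of these but the fit without 5-NA replicate 1 (adjusted p up to 0.24). The UTP15 difference reversed to -0.079 (adjusted p = 0.52) when the probe sets of a gene were averaged, since its dimmer probe set was lower with 5-NA than with EerI (-0.47, adjusted p = 0.0080).

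After adjustment, CBU-028 differed from EerI in 1 member, TAF1A, which was higher by 0.58 (SE 0.11, adjusted p = 0.030), against 1.6% of all genes called higher. At an unadjusted p under 0.05 in limma, 11 of the 34 were higher, against 1773 of all 19775 genes. limma called 0 members lower (1 at an unadjusted p under 0.05, and 0 by the unmoderated model), against 2.13% of all genes. The median was 0.13 (all genes, -0.0087). Of the 34, 27 lay above 0 and 7 below (20.6%, against 52.4% of all genes below 0). RRN3 was at 0.33 (95% interval 0.16 to 0.51, adjusted p = 0.056) and POLR1E at 0.29 (95% interval 0.05 to 0.53, adjusted p = 0.19). 5-NA differed from CBU-028 in 2 members, both lower with 5-NA: TAF1A (-0.55, SE 0.11, adjusted p = 0.015) and POLR1E (-0.39, SE 0.10, adjusted p = 0.046), against 7.33% of all genes called lower. limma called 0 higher (3 at an unadjusted p under 0.05, and 2 by the unmoderated model with adjustment), against 6.47%. The RRN3 difference of 0.24 had a 95% interval of 0.07 to 0.42 (adjusted p = 0.078), and the NOP10 difference of -0.27 one of -0.44 to -0.10 (adjusted p = 0.054).

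The TAF1A difference between CBU-028 and EerI was lost in 5 fits, those without a control array, an EerI array or CBU-028 replicate 1 (adjusted p up to 0.24). That between 5-NA and CBU-028 was lost without CBU-028 replicate 1 or 5-NA replicate 2 (adjusted p up to 0.11). The POLR1E difference was lost in 7, all but that without 5-NA replicate 1 (adjusted p up to 0.22).

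**Figure D4:**
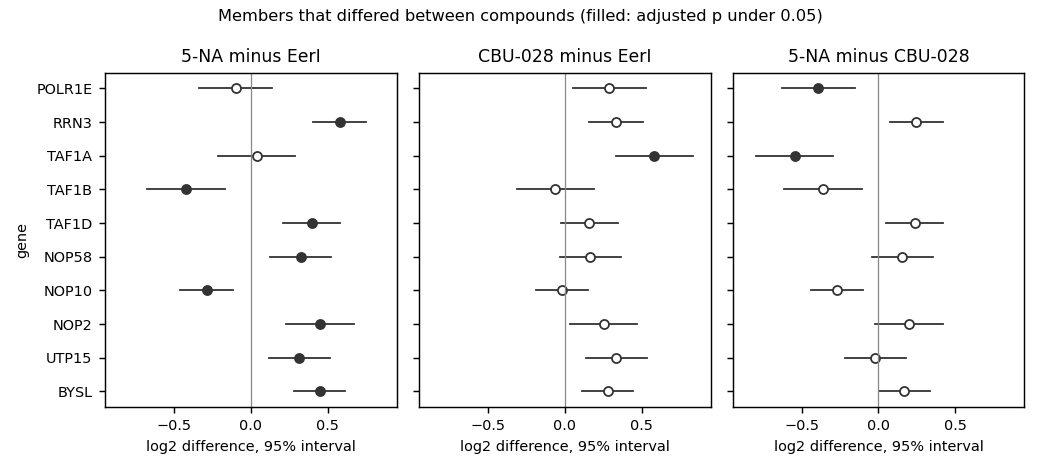
Log2 difference (horizontal axis) between each pair of compounds for the 10 members called in any pair (vertical axis), with 95% intervals and filled symbols at an adjusted p under 0.05. TAF1A is higher with CBU-028 than with either other compound, and RRN3, BYSL, NOP2 and TAF1D are higher with 5-NA than with EerI.

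Other genes of the pathway, from lists drawn up apart from the members, were read in the same fits. Of 10 further Pol I factors, some of them subunits shared with Pol II, POLR1G, the partner of POLR1E, was lower with all 3 compounds: by -0.43 (SE 0.07, adjusted p = 0.0499, just under the threshold) with EerI, -0.73 (SE 0.07, adjusted p = 0.00081) with CBU-028 and -0.51 (SE 0.07, adjusted p = 0.0026) with 5-NA. TTF1, which ends Pol I transcription, was higher with 5-NA by 0.80 (SE 0.11, adjusted p = 0.0023), and no other gene of the list was called against control.

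Over all genes, 5.49% were called higher and 7.1% lower with CBU-028, and 7.87% higher and 10.9% lower with 5-NA. Of 49 further factors of the small subunit, limma called 0 with EerI (at an unadjusted p under 0.05, 1 was higher and 10 were lower), 3 higher and 4 lower with CBU-028, and 5 higher and 6 lower with 5-NA. Among the called genes, the largest rises with CBU-028 were those of RIOK1 (0.40), KRR1 (0.39) and RCL1 (0.35). The largest falls were those of UTP3 (-0.63), IMP3 (-0.46) and TBL3 (-0.38). With 5-NA the largest rises among called genes were those of the helicase DDX52 (0.52), KRR1 (0.44) and NGDN (0.42). The largest falls were those of IMP3 (-0.56), UTP3 (-0.44) and the rRNA methyltransferase EMG1 (-0.41). Of 50 further factors of the large subunit, limma called 0 with EerI (at an unadjusted p under 0.05, 1 was higher and 6 were lower), 3 higher and 1 lower with CBU-028, and 8 higher and 4 lower with 5-NA. Those called with CBU-028 were NVL (0.49), RPF2 (0.35) and NOL12 (0.33), which rose, and MYBBP1A (-0.42), which fell. Among the genes called with 5-NA, ZNF622 (0.78), DDX55 (0.50) and CEBPZ (0.38) rose most. TMA16 (-0.79), SENP3 (-0.53) and PAK1IP1 (-0.46) fell most among them. Each list held rises beside falls with CBU-028 and 5-NA, and the medians of both lists lay between -0.08 and 0.09 in all 3 comparisons with control. In none of these lists did a gene reach 2-fold.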

How the data were processed

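Total RNA of 8 samples of 293T cells was hybridized to Affymetrix arrays, 2 per group. The authors made the deposited log2 values with RMA (background subtraction, quantile normalization, probe set summary). Partek is also named in the submitters' processing notes, and versions are not given in the sources used here. The methods give another member of the HG-U133 array family than the one whose identifiers the table holds (HG-U133 Plus 2.0). For RNA isolation the methods give TRIzol with RNeasy MinElute and the labels an RNeasy kit. Scanner files were not used here, and the number of arrays limits the precision. Treatments were in duplicate, and the legend of a supplementary table of the study speaks of a biological replicate. How separate the duplicate cultures were is not described. The p-values therefore measure the spread between these samples, which may still be technical in part or in whole.

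Probe sets were named from GEO's platform annotation (41097 had a single symbol, 1801 several, 11777 none). Each gene was read from the probe set that was brightest on average. Group means were fitted over all arrays with limma 3.58.1 in R 4.3.3 (4 residual and 5.08 prior degrees of freedom). Benjamini-Hochberg adjustment ran over all probe sets within each of the 6 comparisons. Alternatives were the methods' own criteria on an unmoderated linear model, thresholds of 1.5-fold and 2-fold, adjustment over all comparisons together, floors of 5 and 7 on the mean log2 value, averaging a gene's probe sets, removal of _x_at probe sets, renewed quantile normalization, centring on the median, a replicate block, separate fits of each pair of groups, a prior variance with a trend, and omission of each array. The fit was tested on simulated data. The members, lists, motifs and tests were chosen with earlier results of these data known. Named with full values were the members called against control, the largest differences between compounds (up to 4 each way) and up to 3 genes each way of every other list. Other members were named to give their values. Promoters came from RefSeq. Python 3.11.15 with matplotlib 3.10.9 drew the figures.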

Additional observations from a re-analysis of the deposited data

How the results depend on the processing

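The numbers of members called were small and moved with most choices, so single calls carry little weight beyond the values given with them. The threshold of 2-fold, with limma or with the methods' criteria on the unmoderated model, left 0 members higher and 0 lower in all 6 comparisons, and 0 rRNA probe sets higher with CBU-028 in place of 3. A threshold of 1.5-fold left 1 member higher with CBU-028 and 0 in every other count of members. Adjustment over all comparisons together gave 2 lower with EerI in place of 0, 1 higher with 5-NA in place of 2, 1 lower in 5-NA against EerI in place of 2, 3 higher in CBU-028 against EerI in place of 1 and 1 lower in 5-NA against CBU-028 in place of 2.

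A floor of 5 on the mean log2 value gave 1 lower with EerI and 2 higher in CBU-028 against EerI. A floor of 7 gave 1 lower with EerI, 4 lower in 5-NA against EerI, 6 higher in CBU-028 against EerI, 2 higher and 5 lower in 5-NA against CBU-028 (main, 0 and 2), and 5 rRNA probe sets higher with CBU-028. Averaging a gene's probe sets gave 1 lower with EerI, 5 higher with CBU-028, 3 higher in CBU-028 against EerI and 2 higher in 5-NA against CBU-028, and turned the UTP15 difference between 5-NA and EerI to -0.079. The trend in the prior variance gave more calls: 3 lower with EerI, 5 higher and 2 lower with CBU-028, 4 higher and 9 lower with 5-NA, 5 lower in 5-NA against EerI, 7 higher in CBU-028 against EerI, 6 lower in 5-NA against CBU-028, and 1 and 5 rRNA probe sets higher with EerI and CBU-028. Fits of the compared groups alone gave 1 higher and 0 lower with CBU-028, 0 higher in CBU-028 against EerI and 0 lower in 5-NA against CBU-028. Median centring gave 1 higher with 5-NA. The unmoderated model with adjustment gave 2 higher in 5-NA against CBU-028 and 0 rRNA probe sets higher with CBU-028. Leaving out _x_at probe sets or normalizing again moved no count by over 1.5 times, and neither did adding the members found only in probe sets with several symbols, an alternative that was added after the data had been seen. The cause of these moves was not tested.

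With each array left out in turn, the counts of members higher and lower ranged from 0 to 0 and 0 to 1 with EerI, 0 to 3 and 0 to 1 with CBU-028, 1 to 2 and 0 to 6 with 5-NA, 1 to 6 and 0 to 3 in 5-NA against EerI, 0 to 4 and 0 to 0 in CBU-028 against EerI, and 0 to 0 and 0 to 3 in 5-NA against CBU-028. Those of rRNA probe sets ranged from 0 to 0 with EerI, 1 to 3 with CBU-028 and 3 to 5 with 5-NA. A group left with a lone array is then assumed to vary like the others.

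The replicate numbers of the labels were shared by the groups. Correlations of the deviations of same-numbered arrays lay between -0.146 and 0.146 over 6 pairs of groups, with 3 below 0. The mean of the hybridization spikes was higher on replicate 2 than on replicate 1 in every group. That of the poly-A spikes was higher on replicate 2 with each compound and lower in control. Whether same-numbered arrays were handled together was not tested, and correlations of normalized values cannot settle it. With the replicate block, 1 member was higher and 0 were lower with CBU-028, 1 was higher and 5 were lower with 5-NA, and 5 were higher and 1 lower in 5-NA against EerI.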

Other observations

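Regulators of rRNA genes and ribosomal protein genes were read in the same limma fits, as lists chosen with earlier results known. Of 20 regulators measured, limma called 0 with EerI (at an unadjusted p under 0.05, 1 was higher and 1 lower, and MXD1 was at 0.36, adjusted p = 0.13), 3 higher and 1 lower with CBU-028, and 6 higher and 1 lower with 5-NA. Of all genes, 5.49% were higher and 7.1% lower with CBU-028, and 7.87% higher and 10.9% lower with 5-NA. MXD1, which competes with MYC for MAX and represses E-box promoters, was 1.44 higher with 5-NA (SE 0.08, adjusted p = 5.17e-05) and 0.42 higher with CBU-028 (SE 0.08, adjusted p = 0.013), and was the only gene of the list past 2-fold. MYC itself was at 0.08, 0.20 and 0.05 with EerI, CBU-028 and 5-NA and was not called. SIRT7, a deacetylase that activates Pol I transcription, was higher with 5-NA by 0.70 (SE 0.08, adjusted p = 0.000818). ARF1 was higher with 5-NA by 0.68, but it encodes a Golgi GTPase that is not an established regulator of rRNA genes. RPS6KB1, the S6 kinase, was higher by 0.41 with CBU-028 and by 0.63 with 5-NA, and RRP8, a part of a silencing complex at rRNA genes, by 0.40 and 0.53. MNT, another partner of MAX, fell with both, by 0.42 with CBU-028 and by 0.32 with 5-NA. The median of the list lay between -0.0183 and 0.0214 in the 3 comparisons with control.

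Of 79 ribosomal protein genes, 52 had a probe set with a single symbol. limma called 0 of the 52 in all 6 comparisons, with 2 higher at an unadjusted p under 0.05 with 5-NA against control and 0 with EerI or CBU-028. Of all 19775 genes, limma called 152 with EerI, 2490 with CBU-028 and 3722 with 5-NA against control. Between compounds it called 3479 in 5-NA against EerI, 738 in CBU-028 against EerI and 2730 in 5-NA against CBU-028. The medians of the 52 ribosomal protein genes lay between 0.0019 and 0.0256 against control, and their values with 5-NA ran from -0.0230 to 0.31.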
